A study of Mus musculus with 12 samples.

Results

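Imprinted growth genes were examined in RNA sequencing of mouse embryonic fibroblasts that carried or lacked the long noncoding RNA lincRNA-p21. The set was Plagl1, H19, Igf2, Igf2r, Dlk1, Meg3, Grb10, Peg3, Mest and Ndn, chosen by name as imprinted genes with a known part in growth. All 10 (in the tables PLAGL1, H19, IGF2, IGF2R, DLK1, MEG3, GRB10, PEG3, MEST and NDN) were measured in both deposited tables, which together held 11481 genes. The cells were primary cultures of hybrid 129/B6 background, either wild type (WT, lincRNA-p21+/+) or knockout (KO) for lincRNA-p21. Each genotype was mock treated or given 0.5 mM doxorubicin for 24 h, a drug that damages DNA and activates p53 (the unit of the dose is printed as the labels state it). Mock and doxorubicin groups of each genotype, 4 in all, had 3 biological replicates each, numbered 1 to 3 in every group. The labels do not say what a replicate number stands for, such as an embryo, a litter or a day, nor how many embryos gave a culture.

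An imprinted gene is transcribed mainly from the copy inherited from 1 parent, under a DNA methylation mark laid down in the germline at an imprinting control region. Many of these genes act on fetal growth, often with paternally expressed genes promoting it and maternally expressed genes restraining it. Many are reduced after birth. Plagl1 (also Zac1), expressed from the paternal copy, encodes a zinc finger transcription factor that can induce apoptosis and cell cycle arrest and is known to regulate other imprinted genes, H19, Igf2, Dlk1 and Cdkn1c among them. The values here are summed over both parental copies, so expression was measured and imprinting was not.

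Promoter sequence is shown for Plagl1 and Grb10, the members whose doxorubicin calls held in both genotypes under every setting tried, since CpG is the site of the methylation mark of imprinted promoters. Methylation itself was not measured in these libraries. RefSeq promoter windows (GRCm38.p6) were found for 9 of the 10 members, H19 having no entry. The lines run 5′ to 3′ over the 250 bases before an annotated start, with every CpG in capitals.
Plagl1, chr10:13090582-13090831, plus strand: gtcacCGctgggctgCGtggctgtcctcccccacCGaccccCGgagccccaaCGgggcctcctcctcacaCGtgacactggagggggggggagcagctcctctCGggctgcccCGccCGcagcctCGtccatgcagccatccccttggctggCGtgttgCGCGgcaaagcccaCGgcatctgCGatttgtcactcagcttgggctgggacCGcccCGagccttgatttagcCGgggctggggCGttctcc
Grb10, chr11:12037421-12037670, minus strand: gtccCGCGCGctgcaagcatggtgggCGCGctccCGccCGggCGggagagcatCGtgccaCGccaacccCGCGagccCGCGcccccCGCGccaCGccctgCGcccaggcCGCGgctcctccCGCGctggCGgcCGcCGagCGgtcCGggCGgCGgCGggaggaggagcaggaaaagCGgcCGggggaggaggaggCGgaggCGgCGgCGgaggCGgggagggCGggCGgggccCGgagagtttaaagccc
Grb10, second annotated start, chr11:12027972-12028221, minus strand: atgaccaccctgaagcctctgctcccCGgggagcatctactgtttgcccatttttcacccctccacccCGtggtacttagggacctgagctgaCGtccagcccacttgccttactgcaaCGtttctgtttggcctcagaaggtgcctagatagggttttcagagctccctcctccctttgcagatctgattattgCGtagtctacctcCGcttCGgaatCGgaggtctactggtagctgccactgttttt
The Plagl1 window held 19 CpG, against a median of 6 over 32851 such windows, and 19.7% of windows held at least as many. Of the Grb10 starts, the first held 40 CpG, a density reached by 1.31% of windows, and the second held 8, reached by 43.0%. The palindrome GGGGCCCC, to which the Plagl1 protein is known to bind, was looked for on both strands of the 300 bases around each start, where 1.08% of all windows held it. Among the members it was found in the single Peg3 window. A pair of microRNAs is processed from the H19 transcript, and they are shown because H19 had the widest doxorubicin response of the set, with the seed (bases 2 to 8) in capitals.
mmu-miR-675-5p, chr7:142577112-142577133, minus strand: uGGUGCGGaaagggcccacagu
mmu-miR-675-3p, chr7:142577078-142577099, minus strand: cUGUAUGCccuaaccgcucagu
The mature microRNAs were not measured by these mRNA libraries, and their seeds differ from each other.

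Expression is given as CPM, the reads of a gene scaled to the total of its library. Library totals ran from 14327048 to 20511907 reads, and the members were read between 99 times (Dlk1 in WT mock replicate 1, a counting error of 10.1%) and 36436 times (H19 in KO mock replicate 1). Every gene in a table lay above 2 CPM in all 3 of its WT libraries, whereas 164 genes (mock) and 313 genes (doxorubicin) reached 2 CPM or less in some KO library, so the tables favour genes expressed in WT. LincRNA-p21 itself was not analysed here, and the genotype labels were therefore not checked against it. Of 9 fibroblast markers 8 were listed. Their summed level was 46807 to 64043 CPM in the mock libraries and lower, at 29548 to 39909 CPM, in those given doxorubicin. Of the markers of other cell types 15 of 34 were listed, namely 1 of 4 for blood, 1 of 5 for endothelium, 2 of 6 for skeletal muscle, 2 of 5 for epithelium, 2 of 3 for cartilage, 3 of 5 for neural cells and 4 of 6 for adipocytes. In bulk RNA, fewer cells expressing a gene and less RNA per cell cannot be told apart.

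Differences were tested over all genes of a table with limma on log2(CPM + 1), and a gene was called at a Benjamini-Hochberg adjusted p under 0.05. All log2 differences are on that scale, on which changes of low genes are understated. Because libraries that share a number varied together within their groups, each comparison was also fitted with the replicate number as a block, that is, as a contrast between libraries of the same number. Blocked values are given where they change the call of a member, and blocked counts are given for the other gene lists. The genotype comparison called 0% of genes without the block in mock cells (0 of 10648, with 440 at an unadjusted p under 0.05) and 0% after doxorubicin (0 of 11125, with 1246). With the block it called 0.92% in mock cells (98 genes, 60 higher and 38 lower in KO; 43 and 65 after median centring) and 25.3% after doxorubicin (2820 genes). Those 98 calls became 4, 0 or 2438 when the libraries numbered 1, 2 or 3 were left out.

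Plagl1 was higher in KO cells under both treatments and was raised by doxorubicin in both genotypes. In replicates 1, 2 and 3 it was at 40.8, 39.4 and 51 CPM in WT mock cells and at 87.1, 86.7 and 96.4 CPM in KO mock cells. Every KO library lay above every WT library, and the groups were 43.7 ± 6.33 and 90.1 ± 5.48 CPM (mean ± SD, n = 3 each). After doxorubicin it was at 86.4, 142 and 121 CPM in WT and at 155, 203 and 197 CPM in KO cells, again without overlap, at 117 ± 28.1 and 185 ± 26.1 CPM. From low to high the groups ran in the order WT mock, then KO mock, then WT given doxorubicin, then KO given doxorubicin. The middle pair overlapped, since WT doxorubicin replicate 1 lay below all 3 KO mock libraries.

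The KO minus WT difference of Plagl1 was 1.03 in mock cells (SE 0.12), with KO to WT ratios of 2.14, 2.20 and 1.89 for numbers 1, 2 and 3. It did not pass over all genes without the block (limma, adjusted p = 0.261), whereas with the block Plagl1 was called higher in KO (adjusted p = 0.0223). That call was lost without the libraries numbered 1 (adjusted p = 0.0683) or 2 (adjusted p = 0.154) and held without those numbered 3. After doxorubicin the difference was 0.68 (SE 0.20), with ratios of 1.79, 1.43 and 1.62. Here too it did not pass without the block (adjusted p = 0.443), whereas with the block Plagl1 was called higher in KO (adjusted p = 0.00523). The blocked call held when any 1 number was left out, at adjusted p of 0.00183 to 0.0379. Non-overlap with KO higher was seen for 8.25% of all genes in mock cells and 9.7% after doxorubicin. Among the members it was seen for 1 of 10 in mock cells, Plagl1, and for 2 of 10 after doxorubicin, Plagl1 and Ndn.

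**Figure D1:**
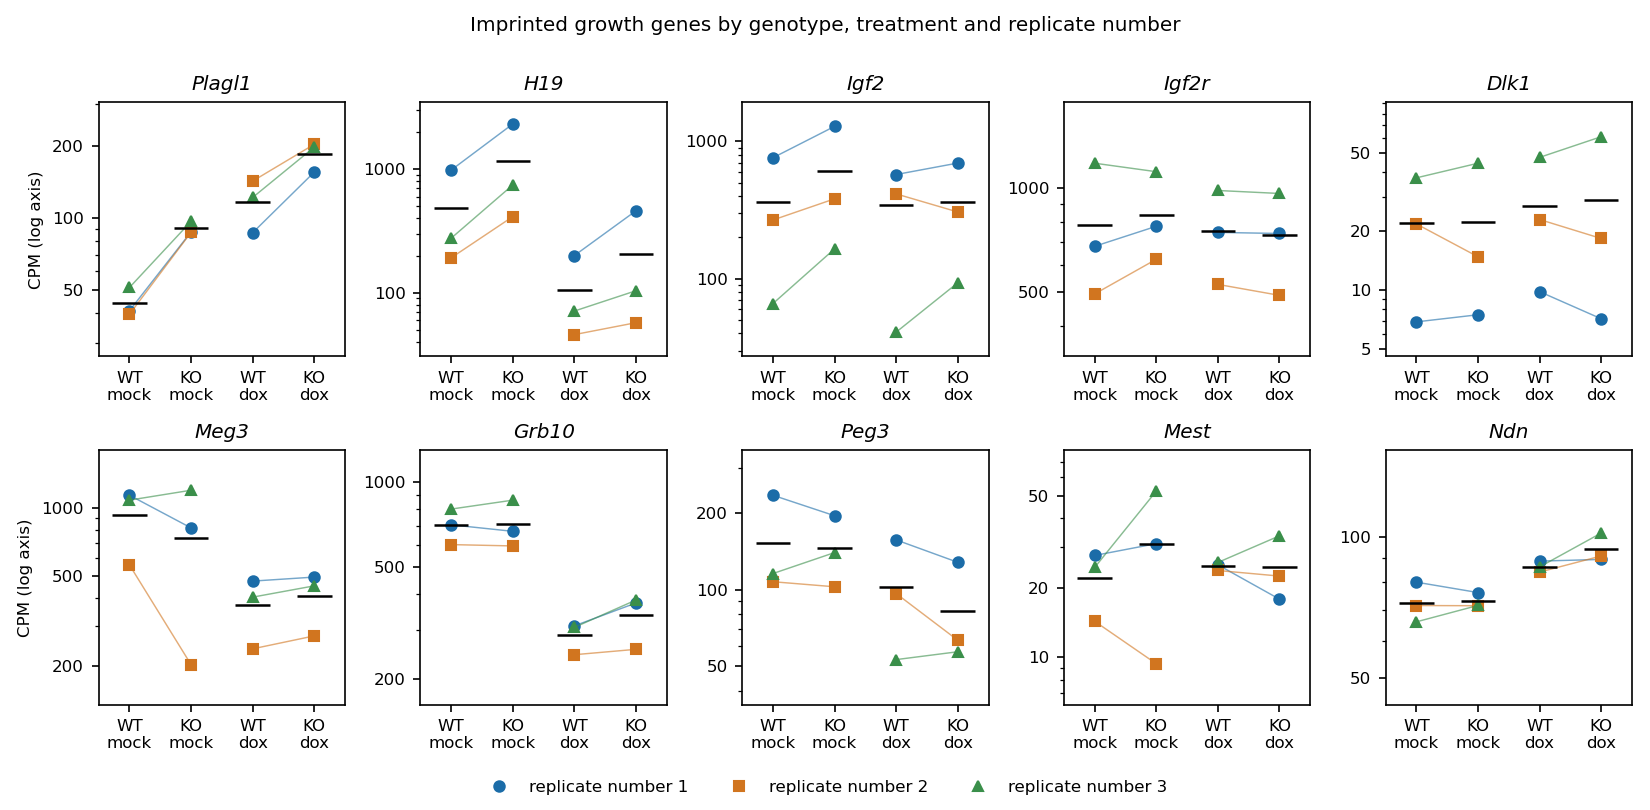
CPM (log axis, scaled to each gene) of the 10 genes in the 12 libraries, by genotype and treatment, with circles, squares and triangles for replicate numbers 1, 2 and 3, thin lines joining WT and KO libraries of the same number and black bars for group means. Plagl1 goes up from WT to KO along all 6 lines, whereas the lines of Dlk1, Igf2 and Igf2r stay far apart by replicate number, with the Dlk1 triangles at 37.6 to 60.9 CPM and its circles at 6.91 to 9.86 CPM.

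H19 and Igf2 are neighbours that share enhancers and an imprinting control region. H19 is a maternally expressed noncoding RNA that restrains growth, and Igf2 encodes insulin-like growth factor 2, the paternally expressed ligand that promotes it. Igf2r encodes the receptor that takes this ligand up for degradation. H19 was at 983, 192 and 276 CPM in WT mock replicates 1, 2 and 3 and at 2319.9, 413 and 745 CPM in KO mock. Each KO library lay above the WT library of its number, by 2.36, 2.15 and 2.70 times, yet the groups overlapped, since WT replicate 1 exceeded KO replicates 2 and 3. The difference was 1.26 (SE 0.80), not called without the block (limma, adjusted p = 0.978), whereas H19 rose with it (adjusted p = 0.0223, with an SE of 0.07). Unblocked, the difference was 0.57 without KO mock replicate 1, 0.78 without WT mock replicate 2 and 1.95 without WT mock replicate 1. The blocked call was lost without the libraries numbered 1 (adjusted p = 0.0611) or 2 (adjusted p = 0.154).

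After doxorubicin H19 was at 199.9, 45.8 and 71.1 CPM in WT and at 460.5, 57.2 and 104 CPM in KO. The KO library was again higher for each number, by 2.30, 1.25 and 1.46 times, a difference of 0.68 (SE 0.80; adjusted p = 0.688). With the block H19 rose (adjusted p = 0.0235), and without the libraries numbered 1 that call was lost (adjusted p = 0.0757). Without KO doxorubicin replicate 1 alone, the unblocked difference of H19 was -0.17. Igf2 was at 759, 268 and 66.0 CPM in WT mock and at 1284, 381 and 165 CPM in KO mock, higher in KO for each number by 1.69, 1.43 and 2.5 times. Its difference of 0.86 (SE 1.04) did not pass with the block (adjusted p = 0.0669). After doxorubicin Igf2 was at 573, 414 and 40.9 CPM in WT and at 694, 306 and 93.4 CPM in KO, and number 2 went the other way, with a KO to WT ratio of 0.739 (difference 0.34, SE 1.06; adjusted p = 0.345 with the block).

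KO above WT for all 3 numbers was seen for 35.3% of all genes in mock cells and 34.2% after doxorubicin, against 3 of 10 members in mock cells (Plagl1, H19 and Igf2) and 5 of 10 after doxorubicin (Plagl1, H19, Meg3, Grb10 and Ndn). Plagl1 and H19 were the 2 of 10 members called with the block, under each treatment, beside 0.92% of all genes in mock cells and 25.3% after doxorubicin. With the block but without the libraries numbered 3, Igf2 (limma, adjusted p = 0.00129), Igf2r (0.0121) and Meg3 (0.0152, lower in KO) also passed in mock cells. In that fit 2438 of all 10648 genes passed. After doxorubicin, with the block, Igf2 (0.0374) and Grb10 (0.0246) passed without number 2 and Peg3 (0.0278, lower in KO) without number 3. Leaving out 1 number there gave 692 to 2590 blocked calls over all 11125 genes. With all libraries in, Igf2r was not called under either treatment, with or without the block. It was at 679, 495 and 1179 CPM in WT mock cells, 775, 623 and 1115 CPM in KO mock, 745, 527 and 984 CPM in WT doxorubicin and 739, 490.1 and 964 CPM in KO doxorubicin. Its KO minus WT differences were 0.15 (SE 0.35) in mock cells and -0.05 (SE 0.30) after doxorubicin. The antisense noncoding RNA Airn, which overlaps Igf2r, was listed at group means of 3.97 to 6.98 CPM, and reads of the overlap cannot be assigned where the counting strand is not stated.

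**Figure D2:**
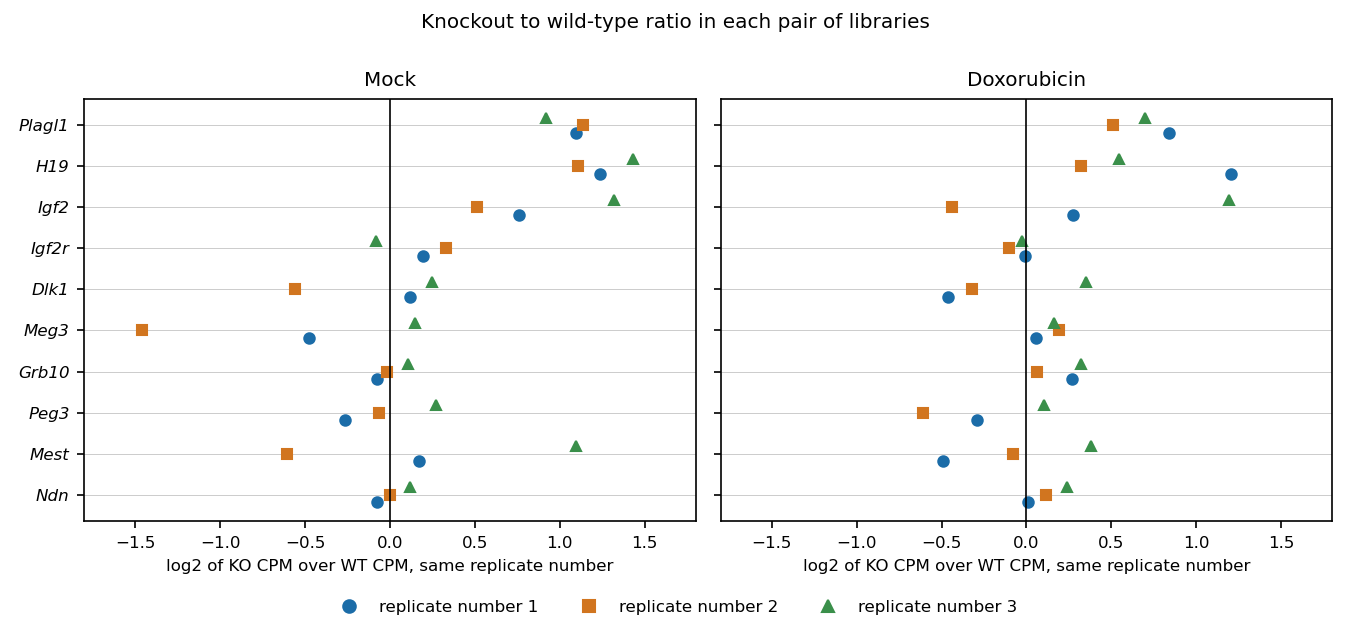
log2 of the KO over WT CPM ratio for libraries of the same replicate number (circle 1, square 2, triangle 3), in mock cells on the left and after doxorubicin on the right, with a line at 0 for equal levels. Plagl1 lies to the right of the line at all 6 points, at ratios of 1.43 to 2.20, and H19 does so too, at 1.25 to 2.70, while the other 8 genes have points on both sides of the line in at least 1 panel.

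Dlk1 and Meg3 lie in a single imprinted domain. Dlk1 encodes a paternally expressed transmembrane protein of the Notch ligand family that restrains adipocyte differentiation, and Meg3 is a maternally expressed long noncoding RNA. Dlk1 was at 6.91, 21.8 and 37.6 CPM in WT mock cells, 7.51, 14.9 and 44.6 CPM in KO mock, 9.86, 23.0 and 47.8 CPM in WT doxorubicin and 7.17, 18.4 and 60.9 CPM in KO doxorubicin. Its KO minus WT differences were -0.06 (SE 0.77) in mock cells and -0.12 (SE 0.78) after doxorubicin, and the libraries of a group spanned 4.85 to 8.50 times from lowest to highest. Meg3 was at 1135, 559 and 1079.7 CPM in WT mock and 814, 203 and 1194 CPM in KO mock. Its difference of -0.60 (SE 0.67) was not called (adjusted p = 0.978, and 0.271 with the block), and numbers 1 and 2 were lower in KO whereas number 3 was higher. After doxorubicin Meg3 was at 474, 238 and 403 CPM in WT and 494, 272 and 452 CPM in KO, a difference of 0.14 (SE 0.31).

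Grb10 encodes an adaptor that binds insulin and IGF1 receptors and dampens their signalling, and it is maternally expressed in most tissues. In mock cells it was at 704, 599.6 and 801 CPM in WT and 668, 593 and 861 CPM in KO, a difference of 0.00 (SE 0.17). After doxorubicin it was at 309.5, 245 and 306 CPM in WT and 373, 256 and 382 CPM in KO, and the KO libraries were higher by 0.22 (SE 0.19; adjusted p = 0.591, blocked 0.0773). Peg3, a paternally expressed zinc finger gene of placental growth and nurturing behaviour, was at 234, 107 and 116 CPM in WT mock and 195, 103 and 139.7 CPM in KO mock. After doxorubicin it was at 157, 96.5 and 53.2 CPM in WT and 128, 63.3 and 57.1 CPM in KO. Its KO minus WT differences were -0.02 (SE 0.35) and -0.26 (SE 0.43), neither called with or without the block.

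Mest, a paternally expressed gene of the alpha/beta hydrolase fold that is known for fetal and adipose growth, was at 27.6, 14.3 and 24.5 CPM in WT mock and 31.0, 9.40 and 52.3 CPM in KO mock. After doxorubicin it was at 25.1, 23.7 and 25.7 CPM in WT and 17.9, 22.5 and 33.5 CPM in KO, and neither difference was called (0.22, SE 0.59, and -0.06, SE 0.23). Mest overlaps Copg2 on the opposite strand, so its reads share the limit given for Igf2r. Ndn encodes necdin, a paternally expressed growth suppressor of postmitotic cells, and it varied least among the members. It was at 80.1, 71.5 and 66.0 CPM in WT mock cells, 76.2, 71.4 and 71.5 CPM in KO mock, 88.8, 84.2 and 86.3 CPM in WT doxorubicin and 89.6, 91.1 and 102.0 CPM in KO doxorubicin. All 3 KO doxorubicin libraries of Ndn lay above all 3 of WT, but the difference of 0.12 (SE 0.11) was not called (adjusted p = 0.617, and 0.276 with the block).

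Doxorubicin was compared with mock treatment in a fit of all 12 libraries over the 10292 genes in both tables. All groups shared a single estimate of the spread. Without the block, leaving out a KO library therefore changed the p-value of a WT difference but not its size, and the reverse. Plagl1 and Ndn rose and Grb10 fell in WT cells, and in KO cells H19 fell as well. That was 3 of 10 members in WT and 4 of 10 in KO, where 47.3% and 34.5% of all genes were called. With the block 6 members were called in WT and 5 in KO, where 63.7% and 53.7% of all genes were. The share of calls that were higher depended on scaling, being 2664 of 4863 in WT and 2052 of 3552 in KO, but 2202 of 5146 and 1669 of 3696 after median centring. Median centring moved the median of all genes in WT from 0.01 to -0.10.

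Plagl1 rose by 1.38 in WT (SE 0.18; limma, adjusted p = 0.000145) and by 1.02 in KO (SE 0.18; adjusted p = 0.00151). The doxorubicin to mock ratio was 2.12, 3.61 and 2.38 for WT replicates 1, 2 and 3 and 1.78, 2.34 and 2.05 for KO. Grb10 fell by 1.29 in WT (SE 0.19; adjusted p = 0.000316) and by 1.07 in KO (SE 0.19; adjusted p = 0.00167), to 0.439, 0.408 and 0.382 of mock in WT and 0.558, 0.431 and 0.444 in KO. No doxorubicin library of either gene overlapped the mock libraries of its genotype. Among the members this was also so for Ndn in both genotypes and for Meg3 in WT. The share of all genes without overlap was not counted, so it is not read as particular to these members. Of all genes 47.3% were called in WT and 34.5% in KO. The Plagl1 and Grb10 calls held in both genotypes under every setting tried and with any 1 library left out.

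H19 had the widest doxorubicin difference among the members. It was at 0.203, 0.239 and 0.257 of its mock level in WT and at 0.198, 0.139 and 0.139 in KO, lower for all 6 libraries. The difference was -2.09 in WT (SE 0.89), not called without the block (adjusted p = 0.0739), and H19 fell with it (adjusted p = 1.72e-06, SE 0.14). Without WT or KO doxorubicin replicate 1 it also passed unblocked (adjusted p = 0.0440 and 0.0466). In KO H19 fell by 2.66 (SE 0.89; adjusted p = 0.0379, and 6.97e-07 with the block). Without the block the KO call was lost when KO mock replicate 1 (adjusted p = 0.141), KO mock replicate 3 (adjusted p = 0.0648), KO doxorubicin replicate 2 (adjusted p = 0.136) or KO doxorubicin replicate 3 (adjusted p = 0.111) was left out. The blocked calls held without any 1 number.

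Meg3 was at 0.418, 0.426 and 0.373 of mock in WT, a difference of -1.30 (SE 0.56; adjusted p = 0.0768), and fell with the block (adjusted p = 0.00224), or without it when KO mock replicate 2 or 3 was left out (adjusted p = 0.0111 and 0.0483). In KO it was at 0.607 and 0.378 of mock for numbers 1 and 3 but at 1.34 for number 2, where KO mock stood at 203 CPM, and the difference of -0.57 was not called (adjusted p = 0.464, and 0.113 with the block). Without KO mock replicate 2 the KO difference was -1.33 and passed (adjusted p = 0.0284). Peg3 was below mock for all 6 libraries, at 0.460 to 0.899 of it in WT and 0.408 to 0.657 in KO. Its differences of -0.61 (SE 0.44; adjusted p = 0.273) and -0.86 (SE 0.44; adjusted p = 0.153) passed with the block (adjusted p = 0.0179 and 0.00396). Without the libraries numbered 1 the blocked WT call of Peg3 was lost (adjusted p = 0.0876).

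Ndn rose by 0.25 in WT (SE 0.10; adjusted p = 0.0473) and by 0.36 in KO (SE 0.10; adjusted p = 0.0136), beside a replicate SD of 2.33 to 7.14 CPM in the 4 groups. After median centring the WT difference was 0.14 and no longer called (adjusted p = 0.230), and with quantile normalization neither was (adjusted p = 0.355 in WT and 0.0527 in KO). The WT call was also lost without any single library other than WT mock replicate 1 or KO doxorubicin replicate 3, at adjusted p of up to 0.176, and the KO call without KO doxorubicin replicate 3 (adjusted p = 0.0575). Igf2, Igf2r, Dlk1 and Mest were not called in either genotype, with or without the block of all 12 libraries. With that block and median centring Igf2r passed in KO (-0.29, adjusted p = 0.0229), and with the block but without the libraries numbered 2 Igf2 did (-0.85, adjusted p = 0.0264). Igf2 in KO was at 0.541, 0.802 and 0.567 of mock, a difference of -0.67 (SE 1.18; adjusted p = 0.690, 0.0783 with that block, and 0.0351 with a block of replicate numbers kept apart by genotype).

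**Figure D3:**
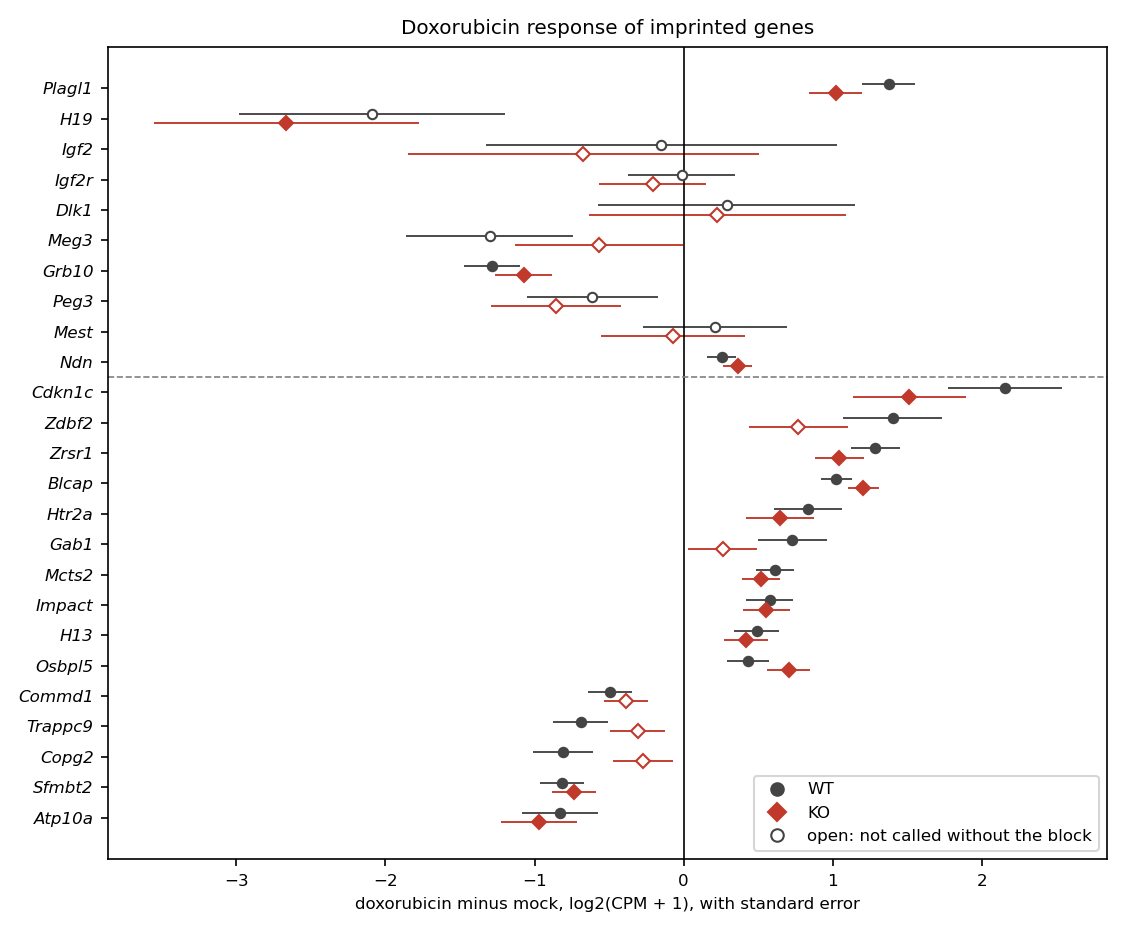
Doxorubicin minus mock difference of log2(CPM + 1) with its standard error, in WT (dark circles) and KO (red diamonds), for the 10 genes above the dashed line and for 15 other imprinted genes called in either genotype below it; filled marks passed without the replicate block. Plagl1 lies at 1.38 and 1.02 and Grb10 at -1.29 and -1.07, with WT and KO close together, and the H19 bars are as wide as 0.89 on each side.

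Whether genotype changed the response to doxorubicin was tested as an interaction. It called 0% of genes without the block (0 of 10292; 468 had an unadjusted p under 0.05, and the lowest adjusted p was 0.922) and 0% with it (1610 and 0.171). For Plagl1 the interaction was -0.35 (SE 0.25), a smaller step by doxorubicin in KO than in WT that did not pass (adjusted p = 0.922, and 0.383 with the block). For H19 it was -0.57 (SE 1.26) and for Meg3 0.73 (SE 0.79), the widest of the members in each direction. These estimates do not show that the genotypes responded alike, since their standard errors ran from 0.14 (Ndn) to 1.67 (Igf2).

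Replicate number went with a larger share of the variation than doxorubicin or genotype did for Dlk1, Igf2r, Igf2, Peg3, Meg3 and Mest. In order of level, H19 ran from high to low as replicates 1, 3 and 2 in every group, Igf2 as 1, 2 and 3, Igf2r as 3, 1 and 2, and Dlk1 as 3, 2 and 1. Such an order, the same in all 4 groups, held for these 4 of 10 members and for 11% of all genes. Of the sum of squares of log2(CPM + 1) over the 12 libraries, replicate number took 95.3% for Dlk1, 92.7% for Igf2r and 87.7% for Igf2, against a median of 18.7% over all genes. A share at least as large was seen in 0.0680% of genes for Dlk1, 0.146% for Igf2r and 0.593% for Igf2. These are descriptions of 12 libraries, with no test.

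For Peg3, Meg3 and Mest replicate number took 54.0, 48.2 and 46.5%, and for H19 39.2%, beside 50.9% for doxorubicin and 8.47% for genotype. Grb10 and Ndn went mainly with doxorubicin, at 87.6 and 76.1%, and Plagl1 with doxorubicin at 61.1% and genotype at 31.2%, with 3.32% left to replicate number. The genotype share of Plagl1 compared with a median of 4.54% over all genes and with 8.47% for H19, the next of the members. The ligand and its receptor did not share an order, Igf2 being highest in number 1 and lowest in number 3 of every group and Igf2r highest in number 3 and lowest in number 2.

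**Figure D4:**
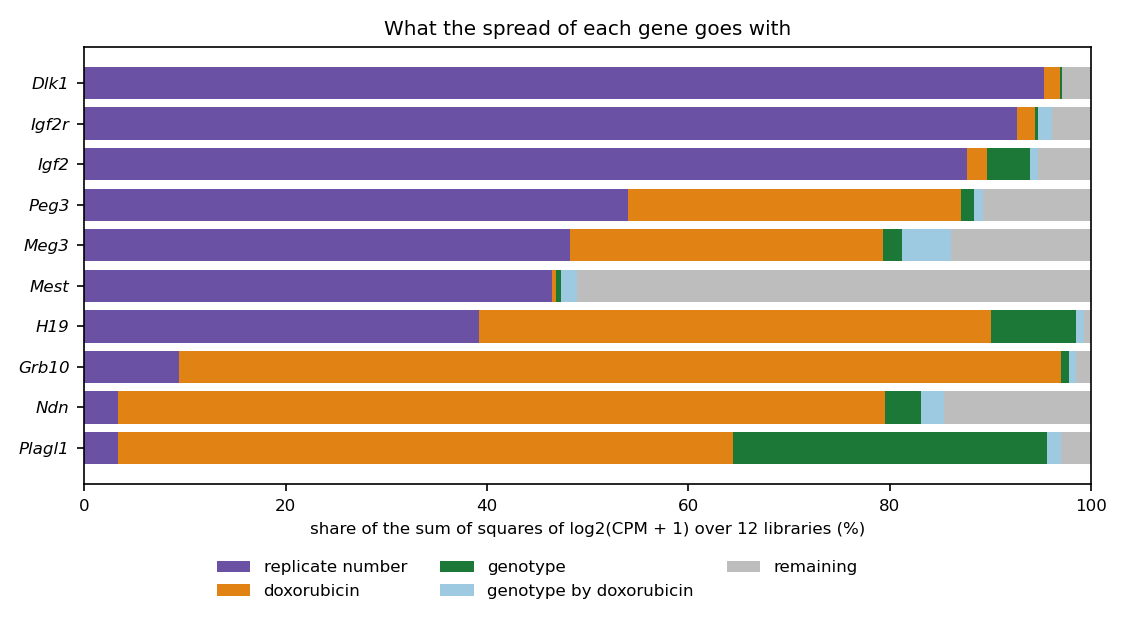
Share of the sum of squares of log2(CPM + 1) over the 12 libraries (horizontal axis, %) that went with replicate number, doxorubicin, genotype, their interaction and the remainder, for each of the 10 genes from the largest to the smallest share of replicate number. Dlk1, Igf2r and Igf2 at the top are nearly filled by replicate number (95.3, 92.7 and 87.7%), and Plagl1 at the bottom has the widest genotype segment, 31.2%.

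Some markers of other cell types also followed the replicate number, and others did not. The blood marker Cd68 ran from high to low as numbers 1, 2 and 3 in every group, from 29.2 to 2.84 CPM in WT mock and from 58.3 to 2.42 CPM in KO mock, the order of Igf2. The summed level of the listed muscle markers Des and Acta1 was highest in number 2 and lowest in number 3 of every group, at 434 and 75.9 CPM in WT mock and 182 and 30.9 CPM in KO mock. It was lower in KO than in WT for every number under both treatments, the opposite direction to Plagl1 and H19. The cartilage markers Sox9 and Col2a1 summed to 22.6, 40.8 and 25.6 CPM in WT mock replicates 1, 2 and 3 and to 54.3, 161 and 26.0 CPM in KO mock, higher in KO for every number, the same direction as Plagl1 and H19. After doxorubicin they summed to 51.1, 103 and 45.6 CPM in WT and to 71.1, 188 and 41.0 CPM in KO, higher in KO for numbers 1 and 2 and lower for number 3. Sox9 alone was then lower in KO for every number, at 15.3, 24.8 and 29.0 CPM against 18.1, 28.8 and 32.9 CPM in WT. With doxorubicin Cd68 was higher than in mock for all 6 libraries, up to 126 CPM, and the endothelial marker Kdr was at 2.26 to 7.68 CPM in the mock libraries and at 24.7 to 35.0 CPM in those given doxorubicin. The epithelial markers Krt18 and Esrp2 summed to 5.53 to 18.7 CPM in the mock libraries and to 32.8 to 90.8 CPM in those given doxorubicin. Neither Kdr nor this epithelial sum kept a single order of the numbers over the groups. The sum of the neural markers Tubb3, Nes and Map2 did not either, being highest in number 2 of WT mock (461 CPM) and in number 3 of WT doxorubicin (634 CPM). Map2 alone ran from high to low as numbers 3, 2 and 1 in every group, the order of Dlk1. It went from 41.3 to 2.30 CPM in WT mock and from 73.6 to 4.27 CPM in KO mock. The listed adipocyte markers, 4 in mock cells and 3 after doxorubicin, summed to 28.6 to 69.6 CPM and to 49.5 to 168 CPM. Their sum was lower in KO than in WT for every number under both treatments. In mock cells Lpl went with the sum for every number, at means of 42.1 CPM in WT and 22.6 CPM in KO. Cebpa went the other way for every number in mock cells, at means of 5.64 CPM in WT and 8.36 CPM in KO. Fabp4 was higher in KO mock for numbers 1 and 2, and Pparg for number 2. After doxorubicin Cebpa, Fabp4 and Lpl were each lower in KO for every number. The part of these cell types, and of the defining markers that were not listed (Ptprc and Csf1r for blood, Myod1 and Myog for muscle, Pecam1 and Cdh5 for endothelium), in the members' values was not tested.

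Other imprinted genes were taken from a list of 58, of which 33 were measured. In KO against WT mock cells 13 of 30 lay above WT and 17 below, beside 66.6% of all genes above WT. The median was -0.06 beside 0.06 over all genes, and limma called 0 in both fits (2 at an unadjusted p under 0.05). Without the libraries numbered 3 the blocked fit called 10, beside 2438 of all 10648 genes. After doxorubicin 15 of 33 lay above and 18 below, beside 54.2% of all genes above WT, with a median of -0.09 beside 0.03 over all genes. Without the block 0 were called (5 at an unadjusted p under 0.05), and with it 2 rose and 7 fell (1 and 7 with median centring), beside 25.3% of all genes called. Those that fell included Cdkn1c, which encodes the cyclin-dependent kinase inhibitor p57 (WT 85.0 ± 26.5 CPM, KO 50.3 ± 14.9 CPM; -0.74, adjusted p = 0.00440 with the block), the protease inhibitor gene Tfpi2 (-1.19), the creatine synthesis gene Gatm (-1.08) and the zinc finger genes Zim1 (-1.06) and Zdbf2 (-0.86). Ascl2, a transcription factor gene of trophoblast, fell by 0.78 from a low level of 3.32 CPM, the coatomer gene Copg2 rose by 0.55 and Impact, an inhibitor of Gcn2 signalling, fell by 0.51. The 9 calls came down to 3 without the libraries numbered 1. Over all genes the blocked calls went from 2820 to between 692 and 2590 when any 1 number was left out.

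In response to doxorubicin 10 of 30 other imprinted genes rose and 5 fell in WT, and 8 rose and 2 fell in KO (with the block 13 and 7 in WT, 9 and 7 in KO). Of all genes 47.3% were called in WT and 34.5% in KO (63.7% and 53.7% with the block). The medians were 0.10 and 0.12 for the list and 0.01 and 0.04 for all genes. Cdkn1c rose most, from 18.9 ± 8.81 to 85.0 ± 26.5 CPM in WT (2.16, adjusted p = 0.000916). In KO it went from 17.7 ± 7.96 to 50.3 ± 14.9 CPM (1.51, adjusted p = 0.0104). Zdbf2 rose by 1.40 in WT, and by 0.77 in KO with the block only (limma, adjusted p = 0.0458). The splicing factor gene Zrsr1 rose by 1.29 in WT and 1.04 in KO, and Blcap by 1.02 and 1.21. The serotonin receptor gene Htr2a rose by 0.84 in WT (0.64 in KO), and Osbpl5, of the oxysterol-binding protein family, by 0.70 in KO (0.43 in WT). Among those that fell in WT were the flippase gene Atp10a (-0.83), the Polycomb-related gene Sfmbt2 (-0.82), Copg2 (-0.81), Trappc9 (-0.69) and Commd1 (-0.49), of which Atp10a (-0.97) and Sfmbt2 (-0.73) also fell in KO. With the block only, Copg2 (-0.27, limma, adjusted p = 0.0446), Trappc9 (-0.31, 0.0257) and Commd1 (-0.39, 0.0152) fell in KO too.

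Of 19 genes of the insulin-like growth factor axis 16 were measured, giving the receptors, binding proteins and adaptors around Igf2. In mock cells 8 of 16 lay above WT in KO, with a median of 0.02, beside 66.6% of all genes above WT and a median of 0.06. Pappa, a protease that cleaves IGF binding proteins, was the 1 called with the block, beside 0.92% of all genes (WT 340.5 ± 80.1 CPM, KO 230.3 ± 31.8 CPM; -0.54, adjusted p = 0.0489). Without the libraries numbered 1 or 2, 0 were called, and without those numbered 3, 9 were. Of all 10648 genes 4, 0 and 2438 were called without numbers 1, 2 and 3. After doxorubicin 7 lay above and 9 below, with a median of -0.07, beside 54.2% of all genes above WT and a median of 0.03. With the block 4 rose, the binding protein gene Igfbp4 (0.91), the receptor adaptor Irs1 (0.62), the signalling receptor gene Igf1r (0.59) and the RNA-binding protein gene Igf2bp2 (0.31), and 3 fell, Igfbp6 (-0.66), the protease gene Htra1 (-0.42) and Igfbp7 (-0.29), beside 25.3% of all genes called. The level of Igf1r was 95.9 ± 11.9 CPM for WT and 144 ± 13.5 CPM for KO (adjusted p = 0.00735 with the block, and 0.443 without). Without the block 0 were called in either table (3 at an unadjusted p under 0.05 in mock cells and 4 after doxorubicin). Leaving out 1 number gave 4 to 8 blocked calls after doxorubicin, beside 692 to 2590 over all genes.

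With doxorubicin 1 of the 16 rose and 6 fell in WT, and 2 rose and 6 fell in KO, where 47.3% and 34.5% of all genes were called. With the block 4 rose and 6 fell in WT, and 3 rose and 6 fell in KO, beside 63.7% and 53.7% of all genes. The rises called only with the block were Igfbp3 in both genotypes and Igf1 and Irs1 in WT. Igfbp5, the binding protein gene, fell by 2.60 in WT (931 ± 347 to 163 ± 103 CPM) and by 3.10 in KO (719.6 ± 216 to 80.2 ± 8.42 CPM). Pappa (-1.54 in WT and -1.23 in KO), the insulin receptor gene Insr (-1.26 and -0.92) and Igf1r (-1.04 and -0.41) fell in both genotypes. So did the RNA-binding protein genes Igf2bp2 (-0.61 and -0.45) and Igf2bp3 (-0.46 and -0.63). The adaptor gene Irs2 rose by 1.44 in WT and 0.93 in KO, and Irs1 rose by 0.79 in KO (limma, adjusted p = 0.0477). In WT Irs1 rose by 0.42 with the block (adjusted p = 0.0313). Grb10, which dampens the same receptors, fell beside Insr and Igf1r in both genotypes.

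Of 17 genes that set or keep imprints 13 were measured in mock cells and 12 after doxorubicin. In mock cells 12 of 13 lay above WT in KO, with a median of 0.15, beside 66.6% of all genes above WT. Both fits called 0 (2 at an unadjusted p under 0.05). Without the libraries numbered 3 the blocked fit called 5, beside 2438 of all 10648 genes. After doxorubicin 10 of 12 lay above, with a median of 0.23, beside 54.2% of all genes. Beside 25.3% of all genes, the block called 5 of them higher, Smchd1 (0.43), Setdb1 (0.33), Dnmt1 (0.32), Zfp445 (0.30) and Trim28 (0.29). When number 1, 2 or 3 was left out 0, 2 or 0 were called, beside 692 to 2590 over all genes. Without the block 0 were called (2 at an unadjusted p under 0.05). With doxorubicin 4 of 12 fell in each genotype and 0 rose, beside 47.3% of all genes called in WT and 34.5% in KO. With the block 5 fell and 1 rose in WT, and 6 fell and 0 rose in KO, beside 63.7% and 53.7% of all genes. Uhrf1, which brings the maintenance methyltransferase to newly copied DNA, fell from 48.8 ± 7.98 to 6.73 ± 3.89 CPM in WT (-2.79, adjusted p = 9.83e-05). In KO it went from 65.1 ± 16.7 to 8.41 ± 2.56 CPM (-2.82, adjusted p = 0.000206). Dnmt1, that methyltransferase, fell in both (-1.42 in WT and -1.39 in KO), as did Smchd1, a chromatin protein of the inactive X (-1.07 and -0.89). The corepressor gene Trim28 fell in WT (-0.53), and Tet3, an oxidase of methylcytosine, in KO (-0.47). With the block only, Trim28 fell in KO too (-0.39, limma, adjusted p = 0.00314), Dnmt3a fell in both genotypes (-0.48 in each) and Tet2 rose in WT (0.54).

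The genes whose pattern over the 12 libraries was most like that of Plagl1 were named by Pearson's r of log2(CPM + 1), as a description with no test, since the libraries share groups and replicate numbers. They were Nid2, a basement membrane gene (r = 0.950), the complement protease gene Masp1 (0.945), the syndecan gene Sdc4 (0.940), the receptor repressor gene Ahrr (0.931) and the limb patterning gene Lmx1b (0.929). Nid2 was at means of 60.3, 101, 120 and 161 CPM in mock WT and KO cells and in WT and KO cells given doxorubicin, the order of the Plagl1 groups. Masp1 ran through 48.7, 98.3, 169.5 and 277 CPM in that order. None of the other 9 members was among these 5.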

How the data were processed

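RNA was sequenced from 12 libraries of mouse embryonic fibroblasts, 3 in each of 4 groups of genotype and treatment. Per the labels' protocols the libraries came from a stranded mRNA kit, and the strand used in counting is not given in the sources used here. Tools named in the submitters' processing notes are HTSeq, edgeR and TopHat2 2.0.6, and the build is NCBIM37. The authors deposited CPM per gene in 2 tables, 1 per treatment, of 10648 and 11125 genes, with 10292 in both. In every library all values were whole multiples of 1 read over a single total (within 0.001 of a read), so the tables share a scale, and the totals describe depth. Tests were made on CPM, not on counts, although the plan allowed for counts.

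Members and gene lists were matched to rows by symbol or by synonym (Tet3 and Map2 were listed under a synonym). Members, lists and tests were chosen with earlier results of these data known. The text names all 10 members, the list genes called in KO against WT (up to 8 a list and comparison, by size) and the 5 genes most correlated with Plagl1. It also names the 5 largest doxorubicin calls each way in a list without the block, and some list genes called only with it. Linear models of log2(CPM + 1) were fitted in R 4.3.3 by limma 3.58.1, with eBayes moderation that allowed a mean-variance trend, and p-values were adjusted over all genes of a fit (Benjamini-Hochberg, threshold 0.05). Genotypes were compared within a table of 6 libraries, and doxorubicin with mock in 1 fit of 12. Requiring a mean of 1 CPM or more left out 0 genes. The fit was tested on simulated data.

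The replicate numbers were taken to pair the libraries because the deviations of like-numbered libraries from their groups were correlated, at values across genes of 0.669 to 0.855 between WT and KO and 0.394 to 0.728 between mock and doxorubicin. The pairing comes from the data and the shared numbers, and with 3 pairs a blocked fit has few residual degrees of freedom. Within-number shares of the sum of squares come from the balanced design of 12 libraries. With 3 libraries a group, unblocked p-values measure the spread between these cultures. Blocked p-values measure only the spread that remains once the replicate number is taken out. Sequences and neighbours are from RefSeq and GENCODE on GRCm38, and no coordinates were taken from the deposited files.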

Additional observations from a re-analysis of the deposited data

How the results depend on the processing

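The replicate block was the choice that moved most counts of calls. In KO against WT mock cells it gave 98 calls in place of 0 (108 with median centring and 104 with quantile normalization as well, 2 alternatives added after seeing the data), and leaving out libraries gave 0 to 2438. After doxorubicin it gave 2820 in place of 0 (2718 and 2602), a pseudocount of 0.1 CPM gave 1, and leaving out libraries gave 0 to 2590. Doxorubicin against mock in KO had 5524 blocked calls in place of 3552 (5624 and 5645), whereas a block kept apart by genotype gave 6202 in WT and 5027 in KO. Beyond the calls named in the text, neither block changed the call of another member. Scaling turned the sign of 2 uncalled differences between KO and WT mock cells, with or without the block, Grb10 to -0.0575 with median centring and Ndn to -0.0483 with median centring and -0.0332 with quantile normalization. Leaving out libraries, with or without the block, also turned the sign of differences that had no call without the block. In KO against WT mock cells the log2 differences ran over -0.72 to 0.49 for Dlk1, -0.15 to 0.12 for Grb10, -0.0594 to 1.69 for Igf2, -0.14 to 0.49 for Igf2r, -1.11 to 0.16 for Meg3, -0.29 to 0.89 for Mest, -0.0516 to 0.0868 for Ndn and -0.25 to 0.34 for Peg3. After doxorubicin they ran over -0.89 to 0.57 for Dlk1, -0.17 to 1.32 for H19, -0.84 to 1.10 for Igf2, -0.28 to 0.21 for Igf2r, -0.15 to 0.40 for Meg3, -0.30 to 0.15 for Mest and -0.66 to 0.11 for Peg3. For doxorubicin against mock in WT they were -0.35 to 0.84 for Dlk1, -1.07 to 1.03 for Igf2, -0.30 to 0.33 for Igf2r and -0.0617 to 0.39 for Mest, and in KO -0.54 to 0.92 for Dlk1, -1.36 to 0.11 for Igf2, -0.43 to 0.0537 for Igf2r and -0.74 to 0.44 for Mest. The interaction ran over -0.83 to 0.63 for Dlk1, -1.43 to 0.12 for H19, -1.70 to 0.40 for Igf2, -0.54 to 0.0894 for Igf2r, -0.024 to 1.25 for Meg3, -0.95 to 0.23 for Mest and -0.64 to 0.13 for Peg3. In each case the cause was not tested. Of 1554 values of single genes and lists under an alternative, 1341 kept their direction and their side of the threshold or their size. Some of these could not change direction, such as a WT difference without the block when a KO library was left out. Values that stayed uncalled also counted as kept, so the count does not measure how firm the results are. The planned count tests were not run. Depth limits Dlk1 most, at 99 reads in the thinnest library.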
